A study of Mus musculus with 18 samples.

Results

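Cytosolic ribosomal proteins are the protein parts of the ribosomes that translate nuclear-encoded messenger RNA. The genes described here are the 80 protein-coding rows, of 54532 gene rows in all, whose symbol is Rpl or Rps followed by a number and at most one of the letters a, x or l, together with Rpsa, Rplp0, Rplp1 and Rplp2. Of these, 49 encode proteins of the large 60S subunit and 31 of the small 40S subunit, and 78 had enough counts to be tested. RNA was sequenced in bulk from microglia, the macrophages that live in brain tissue. The cells came from mouse pups 0 to 3 days old and spent 10 days in mixed culture before they were isolated. The 6 groups of 3 libraries were R47H/+ cells with MK-2206 and tau, R47H/+ cells with tau, R47H/+ cells with MK-2206, R47H/+ cells, Trem2+/+ cells with tau and Trem2+/+ cells. R47H/+ cells are labelled hTrem2 R47H/+ and Trem2+/+ cells mTrem2 +/+. TREM2 is a lipid-sensing receptor of microglia, and R47H is a variant linked to Alzheimer's disease risk in people. Every group had a pre-treatment of 6 h, with MK-2206 at 1 uM or with 0.01% DMSO as vehicle, and no DMSO share is given for the MK-2206 groups. Tau means 0N4R tau fibrils at 1 ug/ml, added after the pre-treatment. The design asks how the R47H/+ state, tau and Akt inhibition change these cells. The labels do not say that replicates were separate cultures or animals, so each p-value reflects the spread among these libraries alone, and that spread may be technical.

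Ribosomal protein genes are among the most highly transcribed genes of any cell, and their products are made in matched amounts for the assembly of each subunit. Their messenger RNAs typically begin with a cytosine followed by a run of pyrimidines, the TOP motif (terminal oligopyrimidine). Through this motif the kinase complex mTORC1 raises their translation when growth signals are present, and LARP1 holds the same messenger RNAs in store when mTORC1 is off. Akt, the target of the allosteric inhibitor MK-2206, acts upstream of mTORC1. Counts of messenger RNA, as measured here, do not report translation.

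The starts of the genes whose levels are described most closely are shown first, because the start is where the TOP motif would stand. The windows come from RefSeq (build GRCm38.p6), run 5′ to 3′ on the gene's strand, and hold the 20 bases before and the 20 bases from the annotated start. Capitals mark a C within 5 bases of the start together with the unbroken run of at least 4 further C or T that follows it.
Rps6, chr4:86857348-86857387, minus strand: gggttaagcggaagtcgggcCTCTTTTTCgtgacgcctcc
Rps24, chr14:24490658-24490697, plus strand: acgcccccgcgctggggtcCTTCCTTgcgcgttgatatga
Rpl12, chr2:32961692-32961731, plus strand: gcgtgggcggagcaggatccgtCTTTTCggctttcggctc
Rpl14, chr9:120571497-120571536, plus strand: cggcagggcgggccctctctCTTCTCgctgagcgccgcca
Rpl28, chr7:4792945-4792984, plus strand: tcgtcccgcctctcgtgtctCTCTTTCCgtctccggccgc
Rpl38, chr11:114668560-114668599, plus strand: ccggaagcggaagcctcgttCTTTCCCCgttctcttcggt
Rps21, chr2:180257359-180257398, plus strand: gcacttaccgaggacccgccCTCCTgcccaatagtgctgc
Rpl10, chrX:74270796-74270835, plus strand: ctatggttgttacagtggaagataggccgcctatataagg
Of the 80 genes, 60 had a start in the RefSeq table, and 28 of the 60 (46.7%) held such a run on the sense strand, the only strand searched. The same run stood at 3767 of 17492 protein-coding genes (21.54%) and at 17 of 69 mitochondrial ribosomal protein genes (24.6%), which belong to another ribosome. Rpl10, a 60S protein joined late in assembly, is shown as one of the starts without the run at the annotated position, and Rps24 and Rps21 each have a second annotated start that lacks it. A match is a description of letters near an annotated start, which can lie some bases away from the start used in microglia. The 80 genes lie on 19 chromosomes, with 14 on chromosome 7, and only 4 pairs stand under 200 kilobases apart, such as Rps2 and Rpl3l with 5890 bases between them.

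The 18 libraries held between 16288531 and 20686299 counts. Short genes were high and long genes low in 2 of them, replicate 3 of the Trem2+/+ cells and replicate 2 of the R47H/+ cells with tau. The difference in log2 CPM from the other libraries of the group changed by -1.42 and -0.74 for each 10-fold step in gene length there, and by -0.175 to 0.141 in the other 16. CPM is the usual unit of counts scaled to library size, here after TMM scaling. Ribosomal protein genes are short, with a median length of 751 bases for a representative messenger RNA, so each result is given with all 18 libraries and with the 16 that remain without those 2, which are called length-shifted below. All 12 microglia and macrophage markers had counts in every group, and their summed level lay between 6770 and 13700 CPM, while 7 neuron markers summed to at most 4.22 CPM and 8 fibroblast and vessel markers to at most 2.93 CPM. Markers of other glia were higher, with sums of 54.1 to 107 CPM for 8 astrocyte markers and 216 to 304 CPM for 8 of the oligodendrocyte lineage. All 8 of each list had counts in every group, except the astrocyte gene Gja1, which had 0 in R47H/+ cells with MK-2206. Of the neuron and vessel lists, Cldn5 was at 0 in every group, and Lum, Snap25 and Stmn2 were at 0 in some groups. In these bulk cultures, fewer cells of a kind and less RNA per cell cannot be told apart.

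The 80 genes together took a smaller share of all counts with tau than without it in both genotypes and with MK-2206. With MK-2206 they took a larger share than without it, with tau only outside the length-shifted library. With MK-2206 and tau the share was 2.83%, 2.61% and 2.84% in R47H/+ cells, against 3.46%, 3.30% and 3.41% with MK-2206 alone. R47H/+ cells with tau held 2.38%, 3.86% and 2.51%, against 3.00%, 3.00% and 3.19% in R47H/+ cells. Trem2+/+ cells with tau held 2.38%, 2.57% and 2.38%, against 2.83%, 3.10% and 7.80% in Trem2+/+ cells. The 2 high values, 3.86% and 7.80%, belong to the length-shifted libraries, and without them none of these 3 pairs of groups overlaps. From the same values, the groups with MK-2206 stood above those without it, without tau and, outside the length-shifted library, with tau. Over all 3 libraries with tau the means were 2.76% with MK-2206 and 2.92% without it. R47H/+ and Trem2+/+ cells without tau lay side by side, at 3.06% and 2.96% in the means of the libraries that were not length-shifted, and with tau both means were 2.45%. No p is given for these sums.

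**Figure D1:**
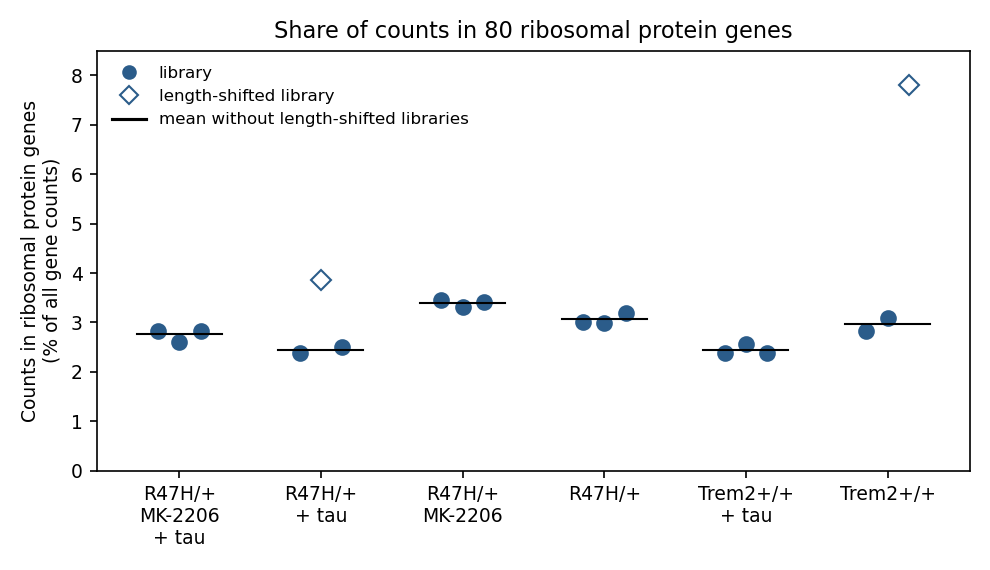
Share of all gene counts taken by the 80 ribosomal protein genes, in percent, for each library of the 6 groups. Filled points are libraries, open diamonds the 2 length-shifted libraries at 3.86% and 7.80%, and bars the group means without them, which run from 2.45% with tau in both genotypes to 3.39% in R47H/+ cells with MK-2206.

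Counts of large subunit genes were lower relative to those of small subunit genes with tau. The ratio of 60S to 40S counts was 1.382, 1.432 and 1.431 in R47H/+ cells with MK-2206 and tau, against 1.503, 1.511 and 1.484 with MK-2206 alone. In R47H/+ cells with tau it was 1.437, 1.408 and 1.435, against 1.510, 1.530 and 1.528 in R47H/+ cells, and 1.408 belongs to the length-shifted library. In Trem2+/+ cells with tau it was 1.505, 1.476 and 1.509, against 1.544, 1.525 and 1.353 in Trem2+/+ cells, where the length-shifted library had 1.353. Without the length-shifted libraries every ratio with tau was below every ratio without it in all 3 pairs. No test was made of these ratios, and the small subunit sum holds Rps24 and Rps20, which are high with tau, as described below.

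**Figure D2:**
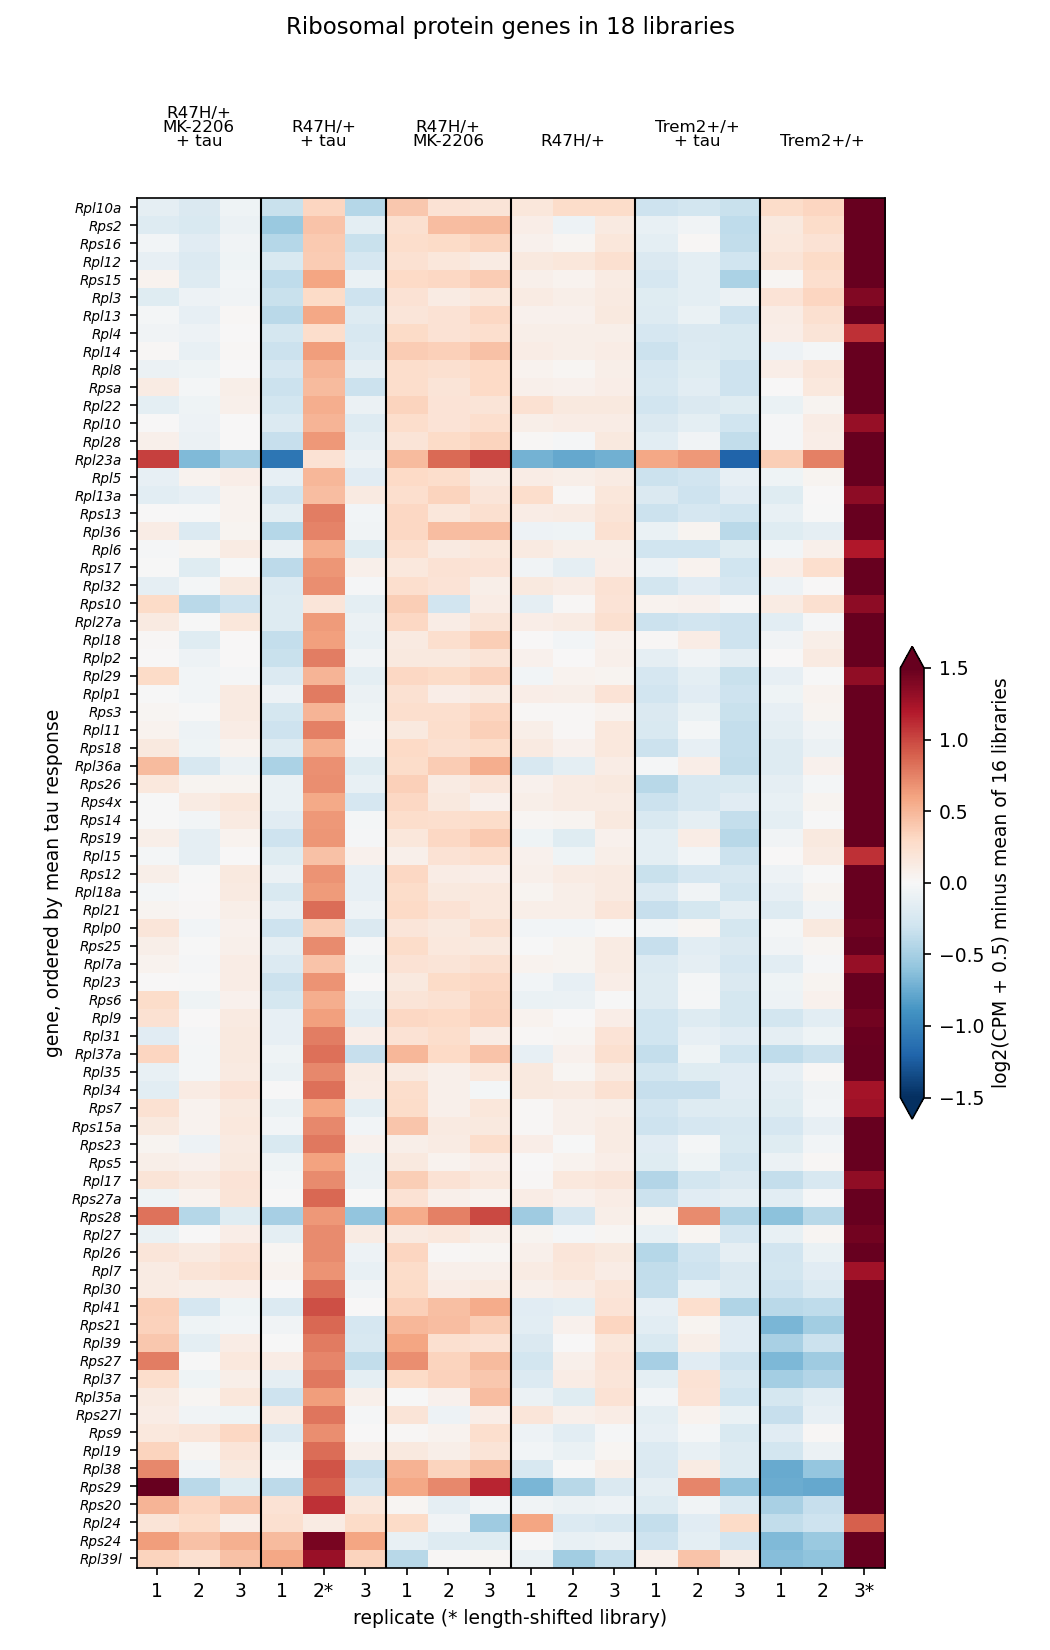
Level of the tested ribosomal protein genes shown, in each of the 18 libraries, as log2(CPM + 0.5) minus the gene's mean over the 16 libraries that are not length-shifted, with genes ordered by their mean change with tau. The 2 columns marked with a star, R47H/+ with tau replicate 2 and Trem2+/+ replicate 3, are high in nearly every row. In the R47H/+ columns with tau the bottom rows, Rps24 and Rps20 among them, go against the top rows.

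Levels were compared between genes as CPM per kilobase of a representative messenger RNA, averaged over the 16 libraries. Rplp1, an acidic protein of the stalk that recruits elongation factors, had the highest level at 1751, followed by the 40S gene Rps12 at 1223, Rpl10 at 1094 and the 40S gene Rps9 at 977. The median of the 80 genes was 423, and 72 genes had a level of at least 100. Rplp1 also ranked first when the gene length given beside the counts was used, while Rps12 then ranked 21 and Rps9 ranked 17. At the low end, Rpl10l, a testis-expressed copy of Rpl10, had 0 counts in all 18 libraries, where 3 counts would be 0.145 to 0.184 CPM. Rpl3l, the copy of Rpl3 used in striated muscle, had 26 counts in all, and these 2 genes were not tested. Among tested genes the lowest were Rpl24 at 1.15, Rps10 at 2.88, Rpl39l at 3.92 and Rpl13a at 16.8 CPM per kilobase. Rpl39l is the testis-expressed copy of Rpl39, which lines the exit tunnel of the ribosome.

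Low counts in several of these genes went together with overlap between annotations. For Rpl24, 71.5% of the messenger RNA lies in exons of another annotated gene, Gm28037, and for Rps10 66.7% lies in exons of RPS10-NUDT3. Rpl13a had 59.3% in Gm45713 and Mir5121, and Rpl23a, at 94.3 CPM per kilobase, had 55.4% in Tlcd1. Rpl35 and Rpl5, with 68.3% and 46.6%, were not among the 6 lowest tested genes. Of the 80 genes, 7 had over 30% of their messenger RNA in another gene's exons, and the part of overlap in the low values was not tested. Ribosomal protein genes also have many processed copies in the genome: 71 of the 80 shared at least 1 window of 100 bases with another annotated transcript, with a highest share of 98.4%. Whether the authors' counting kept reads that match several places or both strands is not given in the sources used here, so small values of these genes carry that uncertainty.

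**Figure D3:**
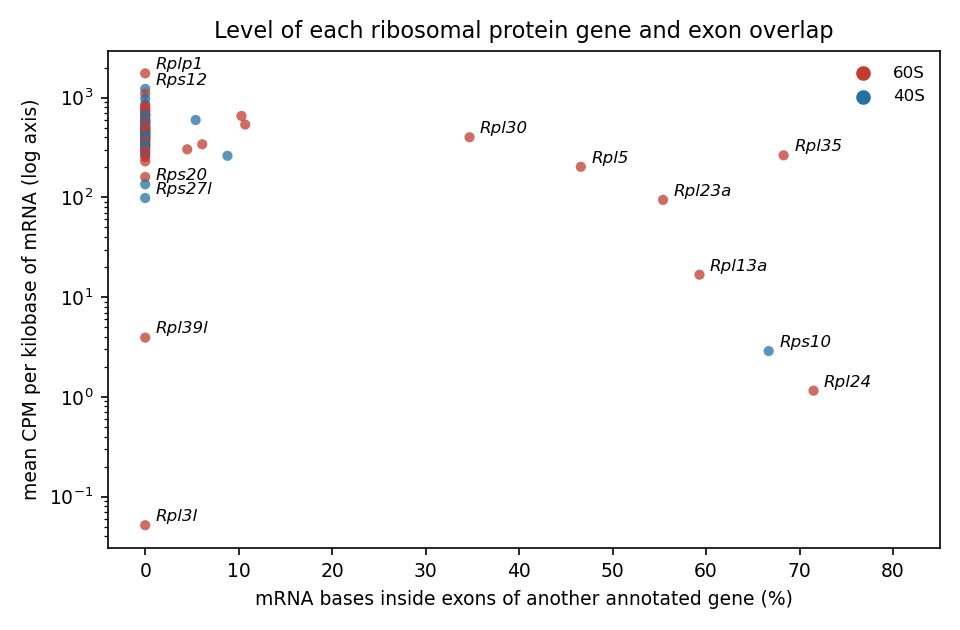
Level of each ribosomal protein gene, as mean CPM per kilobase of messenger RNA over 16 libraries (log axis), against the share of its messenger RNA inside exons of another annotated gene (percent). Rpl24, Rps10, Rpl13a and Rpl23a combine an overlap over 50% with a level under 100, while Rpl35, Rpl5 and Rpl30 overlap and are higher, and Rpl39l and Rpl3l are low with no overlap. Rpl10l, at 0 counts, cannot be drawn on the log axis.

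Tau lowered a large part of the ribosomal protein genes by modest amounts in each of the 3 backgrounds, once the length-shifted libraries were left out. Genes are called at an adjusted p under 0.05 in edgeR's quasi-likelihood test, with p-values adjusted by the Benjamini-Hochberg method across the whole table. In R47H/+ cells with MK-2206, 43 of the 78 genes were lower with tau and 2 were higher, while 25.3% of all 13498 genes were lower and 22.7% higher (48.0% called in all). In R47H/+ cells, 37 were lower and 3 higher, while 21.1% of all genes were lower and 21.6% higher (42.8% called). In Trem2+/+ cells, 29 were lower and 6 higher, while 19.8% of all genes were lower and 21.6% higher (41.4% called). The median log2 changes of the 78 genes were -0.21, -0.22 and -0.16 in these 3 comparisons, which are falls by 13.6%, 14.3% and 10.5%, while the medians of all genes were -0.04, -0.03 and -0.01. For the 14 genes with a representative messenger RNA under 500 bases the medians were -0.19, -0.23 and -0.02. For the other 64 they were -0.22, -0.22 and -0.16. Scaling by total counts moved the median of all genes with tau to between -0.116 and -0.163, and the median of the 78 genes minus that of all genes was then -0.154 in Trem2+/+ cells, -0.197 in R47H/+ cells and -0.166 in R47H/+ cells with MK-2206. Scaling moves all genes of a comparison by nearly the same amount, so these differences could hardly have changed and are no check of the falls.

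Summed glial markers moved with tau as well, in the libraries that were not length-shifted. The 8 markers of the oligodendrocyte lineage summed to 283 to 287 CPM in R47H/+ cells with MK-2206 and tau, against 220 to 232 CPM with MK-2206 alone, to 270 to 296 CPM in R47H/+ cells with tau, against 239 to 242 CPM in R47H/+ cells, and to 279 to 303 CPM in Trem2+/+ cells with tau, against 232 to 251 CPM in Trem2+/+ cells. The 8 astrocyte markers summed to 94.4 to 107 CPM against 54.1 to 70.7 CPM, 79.3 to 83.9 against 66.2 to 69.7 CPM, and 92.1 to 101 against 61 to 66.3 CPM in the same pairs. Within the lists the genes did not move together. Cnp, a myelin enzyme, measured 178 to 184 CPM with MK-2206 and tau, against 73.2 to 77.6 CPM with MK-2206 alone, while Mbp, the myelin basic protein, measured 70.8 to 75.2 against 110 to 120 CPM. Aldh1l1, a folate enzyme, measured 79.4 to 92.8 against 30.5 to 46.5 CPM, while Fabp7, a fatty acid carrier of radial glia and astrocytes, measured 6.61 to 9.09 against 16 to 17.6 CPM. Gfap and Aqp4, defining markers of astrocytes, were at or under 1.3 CPM in each of these 16 libraries. The 12 microglia markers summed to 8640 to 9080 CPM with MK-2206 and tau, against 6770 to 7460 CPM with MK-2206 alone. In R47H/+ cells they summed to 9130 to 9950 CPM with tau against 8950 to 9260 CPM, which overlap. In Trem2+/+ cells they summed to 8080 to 9580 against 7200 to 7910 CPM. The cycling cell genes summed to 222 to 240 CPM in R47H/+ cells with tau, against 178 to 183 CPM. In Trem2+/+ cells they summed to 181 to 196 CPM with tau, against 204 to 217 CPM. With MK-2206 their sums overlapped, at 136 to 148 CPM with tau and 124 to 151 CPM without it. The part of these in the changes with tau was not tested.

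The fit of all 18 libraries gave other counts. It called 0 genes with tau in R47H/+ cells with MK-2206 (25.6% of all genes called, 14.3% higher and 11.3% lower), where 0 had an unadjusted p under 0.05 and DESeq2 also called 0. In R47H/+ cells it called 0 (27.6% of all genes, 15.0% higher and 12.6% lower), with 2 genes at an unadjusted p under 0.05, and DESeq2 called 0. In Trem2+/+ cells it called 36 lower and 0 higher (26.5% of all genes, 12.1% lower and 14.4% higher), with a median of -1.02, and leaving out Trem2+/+ replicate 3 alone left 6 called. Leaving out replicate 1, 2 or 3 of the Trem2+/+ cells with tau left 6, 9 and 5, and leaving out Trem2+/+ replicate 1 or 2 gave 75 and 71. A fit of the 6 R47H/+ libraries with MK-2206 alone, none of them length-shifted, called 39 lower and 2 higher. The share of all genes called in that fit is not given here.

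In the fit of 16 libraries, 20 genes were lower with tau in all 3 comparisons, which share no library, and this is 46.5%, 54.1% and 69% of the genes lower with tau in R47H/+ cells with MK-2206, in R47H/+ cells and in Trem2+/+ cells. The share of all genes lower in all 3 comparisons is not given here. The 20 genes included the 60S genes Rpl3, Rpl4, Rpl5, Rpl6, Rpl8, Rpl10, Rpl10a, Rpl12, Rpl13, Rpl14, Rpl22, Rpl28, Rpl32 and Rplp2 and the 40S genes Rps2, Rps13, Rps15, Rps16 and Rpsa. Of the 16 among them with a RefSeq start, 5 held the pyrimidine run shown above (31.2%), beside the 28 of 60 given above, which include these 16, and the difference was not tested. Rpl3 builds part of the site of peptide bond formation, Rplp2 pairs with Rplp1 in the stalk, and Rpsa is also known as the laminin receptor precursor.

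Rpl10a (ENSMUSG00000037805, chromosome 17, 28328471 to 28331033), a protein of the stalk on the exit side of the ribosome, had the lowest mean change of all. It measured 252, 238 and 266 CPM in R47H/+ cells with MK-2206 and tau, against 366, 321 and 318 CPM with MK-2206 alone. In R47H/+ cells with tau it measured 219.6, 348 and 205 CPM, the second in the length-shifted library, against 311, 335 and 334 CPM in R47H/+ cells. In Trem2+/+ cells with tau it measured 223, 229 and 219 CPM, against 334, 347 and 1005 CPM in Trem2+/+ cells, the third in the length-shifted library. Outside the length-shifted libraries every value with tau was below every value without it. Of all genes, 28.3%, 30.9% and 28.5% stood apart on the lower side in these pairs, so such separation was common. The log2 changes of Rpl10a with 16 libraries were -0.43 (SE 0.0645, adjusted p = 8.79e-06), -0.64 (SE 0.0735, adjusted p = 2.69e-07) and -0.62 (SE 0.0711, adjusted p = 2.34e-07), by edgeR's quasi-likelihood test. With 18 libraries they were -0.41, -0.34 and -1.33, with adjusted p of 0.394, 0.453 and 0.00498, so the last alone passed.

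Rps2 (ENSMUSG00000044533, chromosome 17, 24718116 to 24721929), a 40S protein at the channel where the messenger RNA enters, fell as well. Its levels were 529, 515 and 569.5 CPM in R47H/+ cells with MK-2206 and tau, against 716, 830.5 and 841 CPM with MK-2206 alone. With tau R47H/+ cells had 411, 811 and 545 CPM, against 649, 572 and 664 CPM without it. The groups do not overlap outside the length-shifted library, and the 16-library log2 changes were -0.58 and -0.41 (adjusted p = 2.81e-05 and 0.00409, edgeR), with -0.40 in Trem2+/+ cells (adjusted p = 0.0041). Rpl12, at the base of the stalk, fell by 0.32, 0.44 and 0.47 on the log2 scale in R47H/+ cells with MK-2206, in R47H/+ cells and in Trem2+/+ cells, and Rpl3 fell by 0.29, 0.45 and 0.41.

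Rpl5 and Rpl11, which form a complex with the 5S RNA and can bind the p53 regulator Mdm2, changed by -0.24, -0.27 and -0.25 for Rpl5 and by -0.24, -0.26 and -0.12 for Rpl11. All but the last passed the test with 16 libraries (adjusted p = 0.348 for Rpl11 in Trem2+/+ cells, edgeR). Among the stalk genes, Rplp2 was lower in all 3 backgrounds, Rplp1 in R47H/+ and Trem2+/+ cells and Rplp0 in R47H/+ cells, with log2 changes between -0.14 and -0.27 for all 9 values. Rps6, the substrate of S6 kinase, changed by -0.17, -0.14 and -0.16, and no change passed the test (adjusted p = 0.0871, 0.255 and 0.177, edgeR). Rps27a, which is made as a fusion with ubiquitin, and Rps27l, a copy of Rps27, also passed in none of the 3. Rpl13a, whose human protein serves in a complex that limits translation after interferon, was lower in R47H/+ cells with MK-2206 alone among the 3, at -0.36 (adjusted p = 0.00905), and the differences between the 3 were not called.

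**Figure D4:**
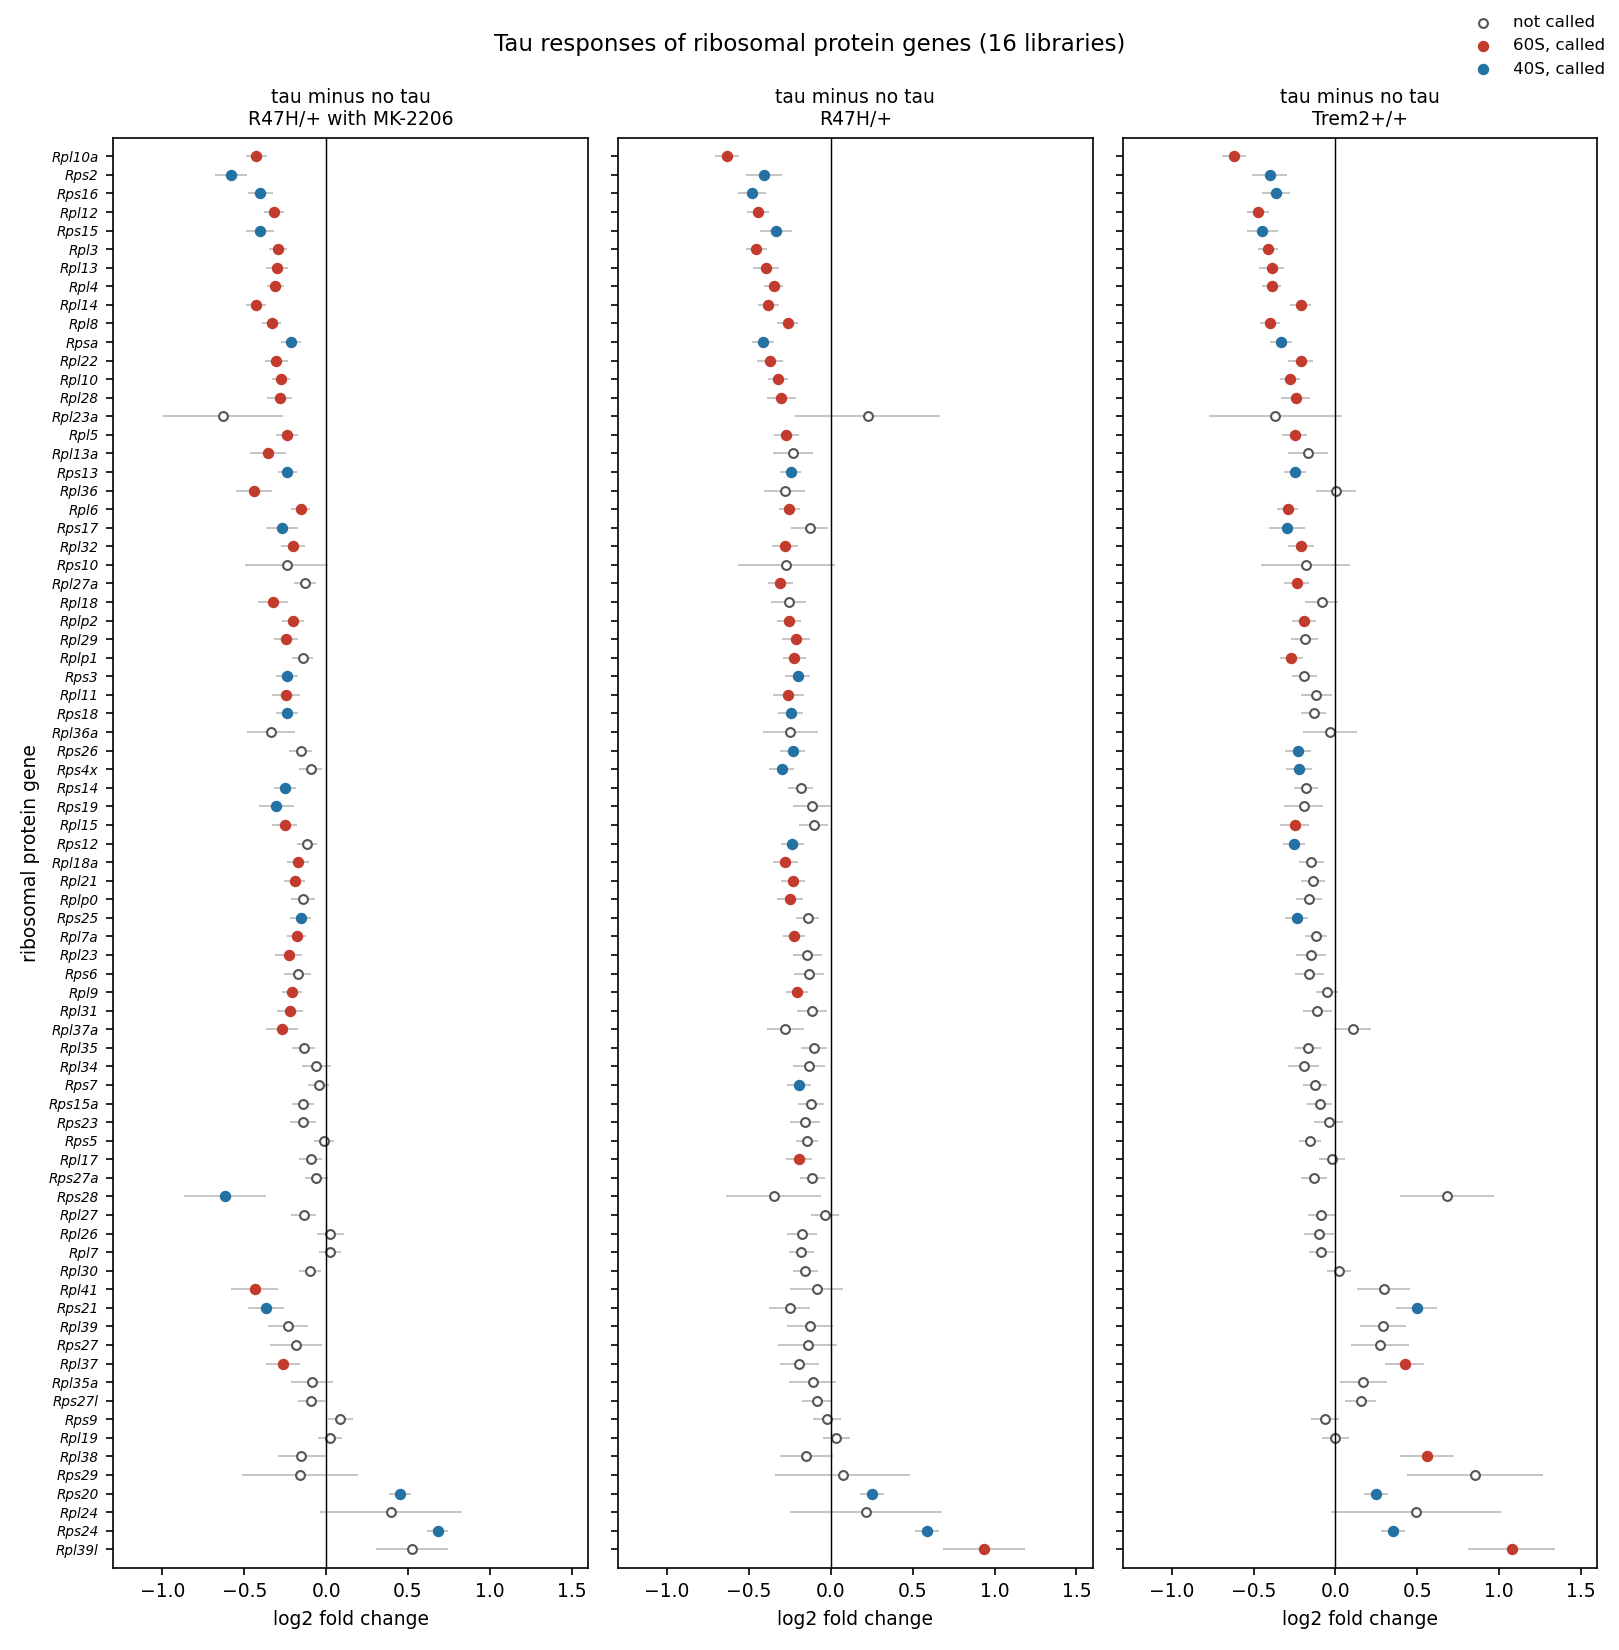
Log2 fold change with tau of the tested ribosomal protein genes shown, in the fit of 16 libraries, in R47H/+ cells with MK-2206 (left), R47H/+ cells (middle) and Trem2+/+ cells (right). Points are estimates with bars of 1 standard error, filled where called, and genes run from the lowest mean change, Rpl10a, to the highest, Rpl39l, with Rps20 and Rps24 filled on the higher side in all 3.

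Rps24 and Rps20 went the other way and were higher with tau in all 3 backgrounds. Rps24 (ENSMUSG00000025290, chromosome 14, 24487125 to 24496959), a 40S protein whose gene is mutated in some human families with Diamond-Blackfan anaemia, measured 748, 661 and 704 CPM in R47H/+ cells with MK-2206 and tau, against 449, 426 and 427 CPM with MK-2206 alone. R47H/+ cells with tau had 673, 1309 and 732 CPM, the second in the length-shifted library, against 485, 449 and 456 CPM in R47H/+ cells. Trem2+/+ cells with tau had 392, 439.9 and 398 CPM, against 307, 329 and 1365 CPM in Trem2+/+ cells, the third in the length-shifted library. Outside the length-shifted libraries the values with tau lay above those without it within each pair, although Trem2+/+ cells with tau were below R47H/+ cells without it. Of all genes, 26.8%, 30.8% and 30.1% stood apart on the higher side in these pairs. The 16-library log2 changes of Rps24 were 0.68 (SE 0.0644, adjusted p = 8.47e-09), 0.59 (SE 0.071, adjusted p = 5.27e-07) and 0.35 (SE 0.0727, adjusted p = 0.000426), by edgeR. With 18 libraries none passed, and the change in Trem2+/+ cells had the other sign, at -0.70.

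Rps20 (ENSMUSG00000028234, chromosome 4, 3831334 to 3835665), another 40S protein, had levels of 699.6, 613 and 663 CPM in R47H/+ cells with MK-2206 and tau, against 503, 447 and 478 CPM with MK-2206 alone. R47H/+ cells with tau had 574, 1054 and 554 CPM, against 476, 464 and 468 CPM in R47H/+ cells. Trem2+/+ cells with tau had 431, 473 and 426 CPM, against 350.0, 388 and 1517 CPM in Trem2+/+ cells. Outside the length-shifted libraries the groups of each pair stood apart, and the 16-library log2 changes were 0.45, 0.25 and 0.25 (adjusted p = 4.9e-06, 0.00729 and 0.00883, edgeR). With 18 libraries the change in Trem2+/+ cells was -0.76 and did not pass.

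Rpl39l rose with tau from a low level. It measured 3.35, 5.8 and 2.74 CPM in R47H/+ cells with tau, against 1.9, 1.29 and 1.51 CPM in R47H/+ cells, and 2.2, 2.95 and 2.33 CPM in Trem2+/+ cells with tau, against 1.14, 1.19 and 8.03 CPM in Trem2+/+ cells. The log2 changes with 16 libraries were 0.93 (SE 0.25, adjusted p = 0.00425) and 1.08 (SE 0.267, adjusted p = 0.00235), by edgeR, and 0.52 with MK-2206 (adjusted p = 0.0568). Its 18 libraries held 851 counts in all, so each of these values rests on few reads. Rpl39 itself, at 143 to 300 CPM in the 16 libraries, changed by -0.23, -0.13 and 0.29, none of which passed.

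The response to tau differed between the genotypes for 3 genes in the fit of 16 libraries. With 16 libraries the difference between the tau responses of R47H/+ and Trem2+/+ cells was called for Rps21, Rpl38 and Rpl37 (0 higher and 3 lower of 78), against 4.54% of all genes higher and 7.39% lower (11.9% called). The share called among the 78, 3.85%, was thus below that of all genes. Rps21 (ENSMUSG00000039001, chromosome 2, 180257377 to 180258445), a 40S protein, measured 147, 277 and 127 CPM in R47H/+ cells with tau, against 136, 159 and 190.2 CPM in R47H/+ cells. It measured 136, 156 and 135 CPM in Trem2+/+ cells with tau, against 94.5, 106 and 759.6 CPM in Trem2+/+ cells. Outside the length-shifted libraries Rps21 was thus lowest in Trem2+/+ cells without tau, and the ranges of the other 3 groups overlapped. The log2 change with tau was -0.25 in R47H/+ cells (adjusted p = 0.115) and 0.49 in Trem2+/+ cells (adjusted p = 0.00293), and the difference was -0.74 (SE 0.177, adjusted p = 0.00599, edgeR).

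Rpl38 (ENSMUSG00000057322, chromosome 11, 114668524 to 114672331), a 60S protein whose loss in mice alters the axial skeleton, had levels of 121, 237 and 96.3 CPM in R47H/+ cells with tau, against 104, 123 and 131 CPM in R47H/+ cells. In Trem2+/+ cells it had 105, 133 and 107 CPM with tau, against 72.8, 82.1 and 574 CPM without it. The difference was -0.71 (SE 0.23, adjusted p = 0.048, edgeR), and for Rpl37 it was -0.61 (SE 0.167, adjusted p = 0.0162). These values rest on Trem2+/+ replicates 1 and 2. The median difference was -0.25 for the 14 genes with a messenger RNA under 500 bases, Rps21 and Rpl38 among them. For the other 64 genes it was -0.03. With a gene length offset as well, Rpl38 did not pass (-0.53, adjusted p = 0.124, edgeR), while Rps21 and Rpl37 did. With all 18 libraries the differences were 1.35, 1.42 and 1.03 for Rps21, Rpl38 and Rpl37, with the opposite sign, and 0 of the 78 genes were called, against 5.37% of all genes (2.05% higher and 3.32% lower). In that fit 49 of the 78 had an unadjusted p under 0.05, and DESeq2 called 1. Leaving out Trem2+/+ replicate 1 alone gave 25 calls in the fit of the other libraries, and leaving out its replicate 2 gave 1.

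MK-2206 raised part of the ribosomal protein genes in R47H/+ cells, and none was called lower. Without tau, 23 of the 78 genes were higher and 0 lower with MK-2206 in the 16-library fit, while 6.82% of all genes were higher and 7.10% lower (13.9% called). With tau, 18 were higher and 0 lower, while 6.28% of all genes were higher and 5.73% lower (12% called). The medians of the 78 genes were 0.15 and 0.19 on the log2 scale, or rises by 11.2% and 13.9%, while those of all genes were -0.003 and 0.001. A fit of the 6 libraries without tau alone, none of which is length-shifted, called 33 higher. The share of all genes called in that fit is not given here. With all 18 libraries 0 genes were called in both comparisons, against 2.55% of all genes without tau (1.19% higher and 1.36% lower) and 3.04% with tau (1.64% higher and 1.40% lower), with 1 and 0 at an unadjusted p under 0.05, and DESeq2 called 0 in both. The median without tau was 0.15 with 18 libraries too, while with tau, where a length-shifted library enters, it was -0.13. Without tau, the summed level of the 12 microglia markers was 6770 to 7460 CPM with MK-2206, against 8950 to 9260 CPM in R47H/+ cells, and that of 6 cycling cell genes 124 to 151 against 178 to 183 CPM. With tau, outside the length-shifted library, the cycling cell genes summed to 136 to 148 CPM with MK-2206, against 222 to 240 CPM without it. The microglia markers summed to 8640 to 9080 against 9130 to 9950 CPM in the same libraries. The part of either in the rises was not tested.

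The genes called higher with MK-2206 both without and with tau were Rpl4, Rpl9, Rpl14, Rpl29, Rpl37a, Rpl38, Rplp0, Rps6 and Rpsa. These 9 make up 39.1% of the genes called without tau and 50% of those called with tau, and the 2 comparisons share no library. The share of all genes called higher in both is not given here. Of the 8 among the 9 with a RefSeq start, 3 held the pyrimidine run (37.5%), Rpl14, Rpl38 and Rps6. Rps6 (ENSMUSG00000028495, chromosome 4, 86854660 to 86857412) measured 418, 328 and 359 CPM in R47H/+ cells with MK-2206 and tau, against 286, 500.5 and 319 CPM with tau alone. Without tau it measured 394, 403 and 435 CPM with MK-2206, against 322, 323 and 343 CPM in R47H/+ cells. Outside the length-shifted library at 500.5 CPM every value with MK-2206 exceeded every value without it in each pair. Of all genes, 19.9% with tau and 15.8% without it stood apart on the higher side. The log2 changes of Rps6 were 0.29 with tau and 0.32 without it (SE 0.0922 and 0.0817, adjusted p = 0.0452 and 0.00919, edgeR, 16 libraries).

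Rpsa (ENSMUSG00000032518, chromosome 9, 120127689 to 120132369) had 874, 787 and 856 CPM with MK-2206 and tau, against 642, 1119 and 645 CPM with tau alone. Without tau it had 969, 922 and 989.8 CPM with MK-2206, against 847, 838 and 865 CPM in R47H/+ cells, and the groups stood apart outside the length-shifted library. Its log2 changes were 0.39 with tau and 0.18 without it (adjusted p = 0.000611 and 0.0486, edgeR). Rplp0, the core of the stalk and a common reference gene in quantitative PCR, rose by 0.34 and 0.23 on the log2 scale, and Rpl38 by 0.50 and 0.50. Rps19, the gene most often mutated in human Diamond-Blackfan anaemia, and Rpl41, the smallest ribosomal protein, rose without tau, by 0.35 and 0.49. Rps27 and Rpl36a rose by 0.50 and 0.50 without tau. Rps24 and Rps20, the genes that were higher with tau, changed by -0.09 and 0.03 with MK-2206 without tau, and neither passed the test.

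With 16 or 18 libraries no ribosomal protein gene had a response to tau that was called different with MK-2206, while the fit of 14 libraries described below called 3 lower. In the 16-library fit 0 of 78 were called for this difference against 4.94% of all genes, with 2 at an unadjusted p under 0.05, and the median difference was 0.02. The fit of 18 libraries also called 0 (0.377% of all genes, 0.181% higher and 0.196% lower), with 0 at an unadjusted p under 0.05, and DESeq2 called 0.

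**Figure D5:**
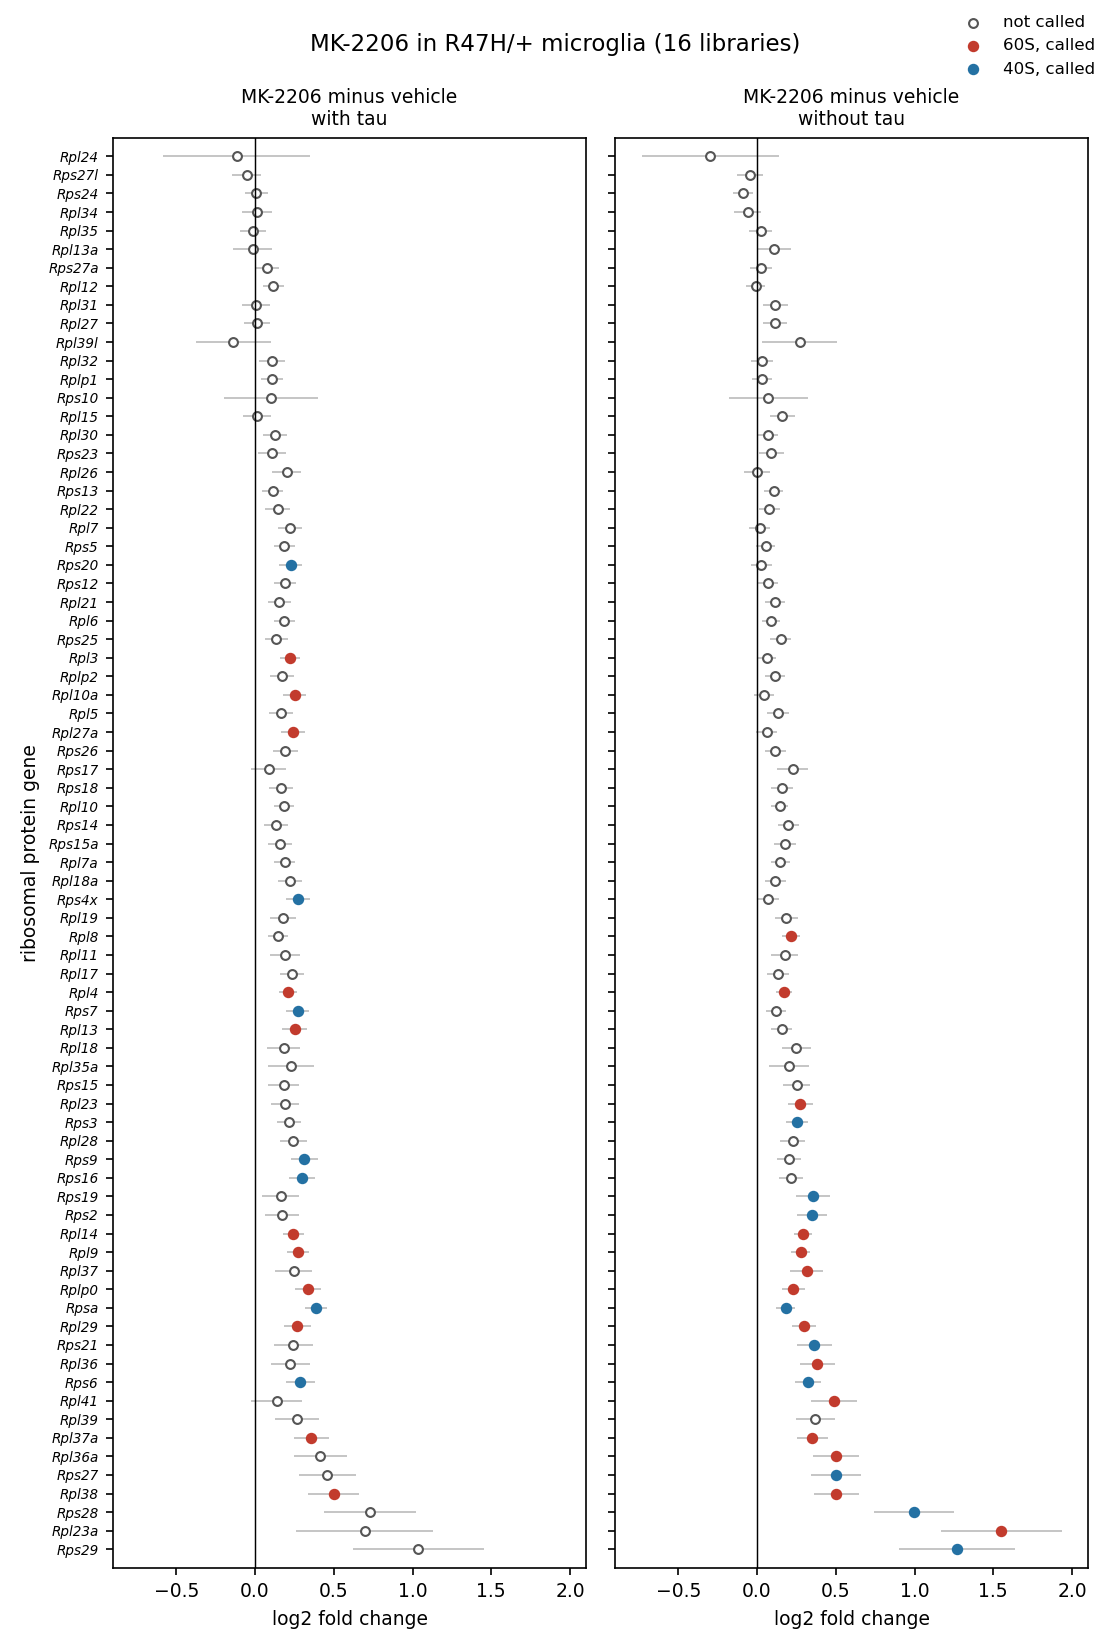
Log2 fold change with MK-2206 of the tested ribosomal protein genes shown, in R47H/+ cells with tau (left) and without tau (right), in the fit of 16 libraries. Points are estimates with bars of 1 standard error and are filled where called, 18 on the left and 23 on the right, all to the right of the zero line. Rpl23a, Rps28 and Rps29 lie farthest right, with wide bars, and are open on the left, where they did not pass.

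Rpl23a, Rps28 and Rps29 had the largest changes with MK-2206 and were spread widely within some groups. Rps28 and Rps29 have short messenger RNAs, of 271 and 390 bases. Without tau the 14 genes under 500 bases had a median change of 0.295 with MK-2206 in the 16-library fit, against 0.144 for the other 64. With tau these medians were 0.226 and 0.186. The part of length in these changes was not tested. Rps29 (ENSMUSG00000034892, chromosome 12, 69157722 to 69159186), a zinc-binding 40S protein, measured 175, 194 and 259 CPM in R47H/+ cells with MK-2206, against 72.7, 87.6 and 101 CPM in R47H/+ cells, a log2 change of 1.27 (SE 0.366, adjusted p = 0.0224, edgeR, 16 libraries). With MK-2206 and tau it measured 373, 88.8 and 104 CPM, against 89.2, 219.9 and 95.9 CPM with tau alone, so that replicate 1 stood far above replicates 2 and 3. In Trem2+/+ cells with tau it measured 107, 195 and 78 CPM, against 69.9, 69 and 974 CPM in Trem2+/+ cells. Rps28 followed the same libraries, with 171, 72 and 85.3 CPM in R47H/+ cells with MK-2206 and tau, 68.6, 153 and 64.4 CPM with tau, 143, 164 and 193 CPM with MK-2206 and 67.1, 81.3 and 103 CPM in R47H/+ cells. Its change with MK-2206 without tau was 1.00 (adjusted p = 0.00955).

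Rpl23a (ENSMUSG00000058546, chromosome 11, 78180932 to 78183584) measured 94.3, 29 and 32.8 CPM in R47H/+ cells with MK-2206 and tau and 21.5, 53.5 and 43.4 CPM with tau. It measured 64.4, 83.7 and 93.2 CPM with MK-2206 and 28, 27 and 27.8 CPM in R47H/+ cells. Trem2+/+ cells with tau had 69.3, 72.6 and 19.8 CPM, against 59.6, 78.6 and 249.8 CPM in Trem2+/+ cells. Replicate 1 was the high one with MK-2206 and tau, as for Rps29. In Trem2+/+ cells with tau replicate 3 was the lowest for both genes. It was far below the others for Rpl23a, while for Rps29 replicate 2 stood farthest from the others. The change with MK-2206 without tau was 1.55 (adjusted p = 0.00813), and R47H/+ against Trem2+/+ cells gave -1.33 (adjusted p = 0.0195), or -2.23 with 18 libraries (adjusted p = 0.0168, edgeR), the one gene of the 78 called in both fits of that comparison. The labels name no batch shared by replicate 1 with MK-2206 and tau and replicate 3 of Trem2+/+ cells with tau. Without these 2 as well, in a fit of 14 libraries, 29 genes were higher with MK-2206 without tau and 17 with tau. All were in that direction, and the shares of all genes in the fit of 14 libraries are not given here.

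R47H/+ cells without tau held higher levels of part of these genes than Trem2+/+ cells in the 16-library fit, where Trem2+/+ cells have 2 libraries. There 21 of the 78 were higher and 1, Rpl23a, was lower, while 15.8% of all genes were higher and 13.1% lower (28.9% called), so the share called among the 78, 28.2%, was near that of all genes. The median log2 difference was 0.16. It was 0.20 for the 14 genes with a messenger RNA under 500 bases and 0.15 for the other 64. With 18 libraries 0 were higher and 1 lower (15.1% of all genes called, 8.22% higher and 6.83% lower), with a median of -0.73 and negative values for all 78 genes. Rps21, Rpl38, Rps27, Rps24 and Rpl37 had the largest rises, of 0.69, 0.62, 0.62, 0.54 and 0.51 (adjusted p = 0.000216, 0.00622, 0.0122, 4.98e-06 and 0.00197, edgeR). Rps27 measured 182, 231 and 253 CPM in R47H/+ cells, against 138, 151 and 814 CPM in Trem2+/+ cells, and its copy Rps27l rose by 0.35 (adjusted p = 0.00618). All 6 of these, and 56 of the 78 genes in all, had the other sign with 18 libraries, where none of the 56 passed. Outside the length-shifted library the microglia markers summed to 8950 to 9260 CPM in R47H/+ cells, against 7200 to 7910 CPM in Trem2+/+ cells, and the cycling cell genes to 178 to 183 against 204 to 217 CPM. With tau the cycling cell genes summed to 222 to 240 CPM in R47H/+ cells, against 181 to 196 CPM in Trem2+/+ cells. The part of these in the differences was not tested.

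With tau, 9 genes were higher and 1, Rpl3, was lower in R47H/+ than in Trem2+/+ cells, while 11.9% of all genes were higher and 11.4% lower (23.3% called). The share called among the 78, 12.8%, was thus below that of all genes. The median was 0.06, and -0.01 with total count scaling, where the median of all genes was -0.077. The median of the 78 genes minus that of all genes was 0.065 with TMM, RLE and total count scaling. Scaling moves all genes of a comparison by nearly the same amount, so this difference could hardly have changed. Within the 78, 49 changes were positive and 29 negative. With 18 libraries 0 were called (9.50% of all genes, 5.25% higher and 4.24% lower), with 3 at an unadjusted p under 0.05, and DESeq2 called 1. Rps24 had the largest difference, 0.78 (SE 0.0709, adjusted p = 4.87e-08, edgeR, 16 libraries). From the values above, no R47H/+ library with tau was as low as any Trem2+/+ library with tau for Rps24. Rps20, Rpl34 and Rpl7 were higher by 0.35, 0.34 and 0.27, and Rpl3 was lower by 0.19 on the log2 scale. The genes higher in R47H/+ cells both without and with tau were Rpl7, Rpl17, Rpl26, Rpl34, Rps13, Rps15a, Rps20 and Rps24, which are 38.1% and 88.9% of those higher in each, from comparisons that share no library. The share of all genes higher in both is not given here.

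Genes that work beside the ribosome were read from lists. Of 22 elongation factors and other genes known for TOP starts, 14 were lower with tau in R47H/+ cells with MK-2206, 15 in R47H/+ cells and 15 in Trem2+/+ cells, and 0 were higher, in the 16-library fit, with medians of -0.25, -0.28 and -0.23. These are 63.6%, 68.2% and 68.2% of the list, while 25.3%, 21.1% and 19.8% of all genes were lower. Eef1a1, which carries transfer RNA to the ribosome, measured 5768, 5700 and 5801 CPM with MK-2206 and tau, against 7252, 6811 and 6864 CPM with MK-2206 alone. In Trem2+/+ cells with tau it measured 4894, 4878 and 4870 CPM, against 5952, 6257 and 9254 CPM in Trem2+/+ cells. Every value with tau was below every value without it in these pairs. With MK-2206, 10 of the 22 were higher with tau (45.5%, against 6.28% of all genes) and 4 without it (18.2%, against 6.82%), and 0 were lower. Among the 10 were Eif4b, a helicase cofactor, and Eef2, the translocation factor. Eef2 measured 2351, 2258 and 2332 CPM with MK-2206 and tau, against 1762, 1972 and 2012 CPM with tau alone, and 2744, 2992 and 3118 CPM with MK-2206, against 2546, 2513 and 2536 CPM in R47H/+ cells. With 18 libraries the counts with tau were 3, 3 and 12 lower, and 0 were called with MK-2206.

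Mitochondrial ribosomal proteins, which serve the separate ribosome of the mitochondrion, had more calls higher than lower with tau in all 3 backgrounds, but in R47H/+ cells with MK-2206 the share called higher was below that of all genes. Of 77 tested, 12 were higher and 4 lower with tau in R47H/+ cells with MK-2206, 21 higher and 2 lower in R47H/+ cells, and 27 higher and 0 lower in Trem2+/+ cells, in the 16-library fit. The shares called higher were 15.6%, 27.3% and 35.1%, against 22.7%, 21.6% and 21.6% of all genes, and those called lower 5.19%, 2.6% and 0%, against 25.3%, 21.1% and 19.8%. With MK-2206 0 were higher and 8 lower with tau (10.4%, against 5.73% of all genes), and 0 higher and 3 lower without it (3.9%, against 7.10%). In R47H/+ against Trem2+/+ cells 23 were higher without tau (29.9%, against 15.8%) and 16 with tau (20.8%, against 11.9%), and 0 lower in both. With 18 libraries the tau counts were 0, 8 and 1 higher and 0, 0 and 1 lower.

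Of 26 initiation factors, 7 were higher and 10 lower with tau in R47H/+ cells with MK-2206, 8 and 4 in R47H/+ cells, and 6 and 4 in Trem2+/+ cells, so this list held calls in both directions. The shares higher were 26.9%, 30.8% and 23.1%, against 22.7%, 21.6% and 21.6% of all genes, and the shares lower 38.5%, 15.4% and 15.4%, against 25.3%, 21.1% and 19.8%. With MK-2206 0 were higher, and 7 were lower with tau (26.9%, against 5.73%) and 2 without it (7.69%, against 7.10%). Of 34 genes on the path from Akt through mTORC1 to the ribosome, 8 were higher and 15 lower with tau in R47H/+ cells with MK-2206, 7 and 10 in R47H/+ cells and 9 and 11 in Trem2+/+ cells. The shares higher, 23.5%, 20.6% and 26.5%, lay near those of all genes given above, and the shares lower were 44.1%, 29.4% and 32.4%. MK-2206 gave 5 higher and 1 lower with tau (14.7% and 2.94%, against 6.28% and 5.73% of all genes), and 8 higher and 3 lower without it (23.5% and 8.82%, against 6.82% and 7.10%). Rragd, a GTPase that carries amino acid signals to mTORC1, fell by 1.31, 1.47 and 1.13 on the log2 scale with tau in the 3 backgrounds.

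Of 7 tested S6 kinase relatives, 2 were higher and 3 lower with tau in R47H/+ cells with MK-2206, 1 and 1 in R47H/+ cells, and 1 and 2 in Trem2+/+ cells. Among 19 regulators and chaperones of ribosomal proteins, 3 were higher and 10 lower, 4 and 5, and 3 and 4 in the same order of backgrounds. Of the 19, the shares higher were 15.8%, 21.1% and 15.8% and the shares lower 52.6%, 26.3% and 21.1%, against 22.7%, 21.6% and 21.6% of all genes higher and 25.3%, 21.1% and 19.8% lower. With 7 S6 kinase relatives a single gene is 14.3% of the list, and no direction is read from it. Myc, a transcription factor that drives ribosome production, measured 1.6, 1.97 and 2.05 CPM in R47H/+ cells with MK-2206 and tau, against 6.85, 6.32 and 6.48 CPM with MK-2206 alone. It measured 3.53, 4.3 and 3.31 CPM in R47H/+ cells with tau, against 6.58, 9.3 and 6.87 CPM in R47H/+ cells. Trem2+/+ cells with tau had 4.35, 3.51 and 3.35 CPM, against 21, 16.2 and 15.5 CPM in Trem2+/+ cells, so that every value with tau lay below every value without it. Its log2 changes were -1.83, -1.16 and -2.32 in these 3 pairs, with adjusted p of 3e-08, 3.6e-05 and 8.5e-11 by edgeR (16 libraries).

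Of 9 snoRNA host genes known for TOP starts, 0 were higher and 4 lower with tau in R47H/+ cells with MK-2206, 0 and 3 in R47H/+ cells and 1 and 0 in Trem2+/+ cells, while 5 were higher in R47H/+ than in Trem2+/+ cells without tau (55.6%, against 15.8% of all genes). The shares lower with tau were 44.4%, 33.3% and 0%, against 25.3%, 21.1% and 19.8%, on only 9 genes. Of 58 tested ribosomal pseudogenes, from 297 annotated, 0 were higher and 3 lower with tau in each of the R47H/+ backgrounds, and 0 were called in Trem2+/+ cells. The 5.17% lower in each R47H/+ background is below the 25.3% and 21.1% of all genes. Of 9 ribosomal proteins under other names, Rps3a1 was lower with tau in all 3 backgrounds, at -0.21, -0.23 and -0.26 on the log2 scale (edgeR, 16 libraries). Rack1, a 40S scaffold protein, was lower in R47H/+ and Trem2+/+ cells.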

How the data were processed

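The authors deposited a table of unnormalized read counts for every gene in 18 libraries, with gene coordinates and gene length beside them. Per the submitters' processing notes, STAR and featureCounts were used on GRCm38 (mm10), and DESeq2 was also named, while versions and settings are not given in the sources used here. Read sharing, strand and length therefore could affect short genes with many copies.

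The analysis used edgeR 4.0.16, limma 3.58.1 and R 4.3.3. Genes were filtered with filterByExpr (13267 kept, or 13498 with 16 libraries), scaled by TMM and fitted with 1 term per group. The 7 pairwise comparisons and 2 interactions were tested with edgeR's quasi-likelihood test (either direction) and Benjamini-Hochberg adjustment across the whole table, with 12 or 10 residual degrees of freedom. Exact permutation tests were not used, since with 3 libraries on each side 0.1 is the smallest p they allow. Replicates differed by more than sampling noise, with a chi-square of 3.47 to 290 per gene. Steps were tested on simulated data. The precision of a CPM is limited by library totals of 16288531 to 20686299 counts, and floors of 3 counts cover counting error only.

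The genes, lists and tests were chosen with earlier results of these data known. Genes were named by a rule: a list of fixed names, the 6 largest rises and 6 largest falls called per comparison, the 4 highest and 4 lowest by level, and those not tested. The fixed name Rps4l is no row of the set. Counts cover all tested genes, but 2 of the genes are not reported by name here or drawn in the plots by gene. Among the other lists Eef1a1, Eef2, Eif4b, Rack1, Rps3a1, Myc and Rragd, and among the markers Cnp, Mbp, Aldh1l1, Fabp7, Gfap and Aqp4, were chosen after their values were seen. Other settings tried were DESeq2 1.42.0, RLE scaling, no filter on counts, the compared groups alone, a replicate block, a lowess offset for gene length (span 0.3), 16 libraries, and each library left out. Chosen after seeing the data were 14 libraries, and 16 libraries with the length offset, RLE or total counts. Lengths of representative messenger RNAs come from GENCODE M21, taking the transcript with the longest coding sequence. The lowess offset used the gene length given beside the counts instead, which can be far longer, as for Rps15a (6270 against 640 bases). The labels do not say that replicate numbers pair samples, and same-numbered replicates correlated between -0.145 and 0.202. The numbers were not used as pairs.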

Additional observations from a re-analysis of the deposited data

Results flagged for a closer look

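The response to tau differed between R47H/+ and Trem2+/+ cells for Rps21, Rpl38 and Rpl37, by an interaction test in the fit of 16 libraries. These 3 are 3.85% of the 78 genes tested, below the 11.9% of all genes called by that test. The differences were -0.74 for Rps21, -0.71 for Rpl38 and -0.61 for Rpl37 on the log2 scale (adjusted p = 0.00599, 0.048 and 0.0162, edgeR's quasi-likelihood test). In R47H/+ cells the 3 genes changed with tau by -0.25, -0.15 and -0.19, and in Trem2+/+ cells by 0.49, 0.56 and 0.42. With all 18 libraries none passed, and each had the opposite sign. With a gene length offset in the 16 libraries the differences were -0.63, -0.53 and -0.59, with adjusted p of 0.0113, 0.124 and 0.00958 by edgeR, so Rpl38 did not pass there.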

How the results depend on the processing

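Leaving out both length-shifted libraries changed most counts of ribosomal protein genes called, from the 18-library counts of 1 for R47H/+ against Trem2+/+ cells and 36 for tau in Trem2+/+ cells, and 0 elsewhere. For R47H/+ against Trem2+/+ cells it gave 22, with the length offset 22, with RLE scaling 22, with total counts 15, and 25 with 14 libraries. In all 18 libraries no count filter gave 19, the length offset 3, DESeq2 8 and the compared groups alone 0. For tau in Trem2+/+ cells, no filter gave 68, DESeq2 59 and the compared groups alone 0. For tau in R47H/+ cells the 16 libraries gave 40, with the offset 46, with RLE 36, with total counts 60, and 14 libraries gave 41, while no filter, the offset and the groups alone gave 2 each. For tau with MK-2206 they gave 45, 50, 40, 64 and 41 in that order, the offset with 18 libraries 3 and the groups alone 41. For R47H/+ against Trem2+/+ cells with tau they gave 10, 13, 13, 6 and 24, and no filter, the groups alone and DESeq2 gave 1 each. For MK-2206 without tau they gave 23, 27, 23, 20 and 29, no filter 1 and the groups alone 33. For MK-2206 with tau they gave 18, 27, 20, 10 and 17. For the genotype by tau difference they gave 3, 2, 2, 3 and 6, and no filter and DESeq2 gave 1 each. For the MK-2206 by tau difference 14 libraries gave 3. Shares of all genes are given above only for the main edgeR fits of 18 and 16 libraries, so the other counts have no such share beside them. The cause was not tested.

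With each library left out in turn, the counts ran from 0 to 50 for R47H/+ against Trem2+/+ cells, the highest without Trem2+/+ replicate 1 and 31 without its replicate 2. They ran from 5 to 75 for tau in Trem2+/+ cells, lowest without replicate 3 with tau and highest without Trem2+/+ replicate 1, and from 0 to 25 for the genotype by tau difference. They were 0 throughout in the other 6.

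The labels do not say whether replicate numbers pair the libraries. A replicate block gave 11 for tau in Trem2+/+ cells and 1 for R47H/+ against Trem2+/+ cells, and 0 in the others.

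Without both length-shifted libraries the sign differed from the 18-library fit for 56 of the 78 genes in R47H/+ against Trem2+/+ cells (21 of them called with 16 libraries), 26 with tau (1), 18 for tau in Trem2+/+ cells (6), 57 for tau in R47H/+ cells (25), 1 for tau with MK-2206 (0), 65 for MK-2206 with tau (14), 1 without tau (0), 54 for the genotype by tau difference (3) and 43 for the MK-2206 by tau difference (0), and none of these was called with 18. Among the genes named by the rule, 30 values reversed and were called in one of the fits, all without both length-shifted libraries except one for Rpl39l with tau in Trem2+/+ cells, which ran from -0.85 without Trem2+/+ replicate 1 to 1.06 without replicate 3 and was 1.08 without both. Among the named genes these were, for R47H/+ against Trem2+/+ cells, Rpl17 0.42, Rpl37 0.51, Rps24 0.54, Rps27 0.62, Rpl38 0.62, Rps21 0.69, Rps27l 0.35 and Rpl39 0.40. For tau in Trem2+/+ cells they were Rps20 0.25, Rps24 0.35, Rpl37 0.42, Rps21 0.49 and Rpl38 0.56, and in R47H/+ cells Rplp0 -0.25, Rplp1 -0.22, Rplp2 -0.26, Rpl11 -0.26 and Rps4x -0.30. For R47H/+ against Trem2+/+ cells with tau Rpl3 was at -0.19. For MK-2206 with tau they were Rps16 0.30, Rps9 0.31, Rpl37a 0.36, Rps6 0.29, Rpl3 0.22 and Rps4x 0.27. For the genotype by tau difference they were Rps21 -0.74, Rpl38 -0.71 and Rpl37 -0.61. Short genes, shared sequence and 2 libraries in a group limit these values.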
